A study of Mus musculus with 12 samples.

Results

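The genes described here are 42 type I interferon-stimulated genes, chosen by symbol from the 26699 genes of the count files. All 42 were found in the files, and all 42 passed the filter on low counts that left 11927 genes for testing. They were measured by bulk RNA sequencing in 12 libraries of macrophages sorted from the synovium, the tissue that lines the joint, of wild-type C57BL/6 mice. Whole synovium was dissected and incubated as an explant, over 4 h, in 100 nM CGRP, calcitonin gene-related peptide, a neuropeptide released by pain-sensing nerves, or in vehicle, which the labels call Healthy or Control. The tissue was then digested and 2 MHC class II-positive subsets were sorted: IAIE cells, which lack CD11c, and CD11c cells, which carry it. Each of the 4 groups, IAIE control, IAIE CGRP, CD11c control and CD11c CGRP, had 3 libraries. All groups share the genotype, the explant culture and the digestion. The methods state that both sexes were used, and they give a general age range for in vivo experiments only. The age of the mice that gave the explants is not given separately in the sources used here. The labels do not say whether the 3 libraries of a group came from separate mice, separate explants or a pool, so that p-values measure the spread between these libraries, which may be technical.

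Type I interferons, the interferon-alpha family and interferon-beta, bind a receptor made of IFNAR1 and IFNAR2. The receptor's kinases, JAK1 and TYK2, phosphorylate STAT proteins, among them STAT2, which acts together with IRF9 in a complex called ISGF3. ISGF3 binds interferon-stimulated response elements in promoters and switches on a broad antiviral programme, of which the 42 genes are well-known members. In macrophages the same programme follows the sensing of nucleic acids or bacterial products through interferon-beta made by the cells themselves or their neighbours. C57BL/6 mice carry an Mx1 allele that gives no functional protein, so that the Mx1 values are of its transcript only.

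Library totals ranged from 2127191 to 5649698 counts. Levels are given as CPM, counts relative to the scaled library total, in the order of replicates 1, 2 and 3, and a floor of 3 counts corresponds to between 0.531 and 1.41 CPM. Such floors cover counting error only, because the methods name no step that told PCR copies from separate molecules. Of 9 macrophage markers, all were tested, and their summed level was 5249 to 6717 CPM in IAIE control, 4802 to 5921 CPM in IAIE CGRP, 2239 to 2566 CPM in CD11c control and 2039 to 2898 CPM in CD11c CGRP libraries, with none at 0. The conventional dendritic cell markers went the other way, with summed levels of 109 to 173 CPM in IAIE control and 634 to 696 CPM in CD11c control libraries. Siglech, a marker of plasmacytoid dendritic cells, which are strong producers of type I interferon, was at 11.2, 10.3 and 7.61 CPM in IAIE control, 9.26, 7.29 and 7.54 CPM in IAIE CGRP, 0.816, 0.701 and 0 CPM in CD11c control and 0.959, 0.248 and 1.07 CPM in CD11c CGRP libraries. Of the 4 tested markers of these cells, 2 were above 0 and 2 below 0 for CD11c against IAIE in control libraries, and Siglech was the 1 that passed. In sorted bulk samples, fewer cells of a type and less RNA per cell cannot be told apart.

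The letters GAAA followed, after any 2 bases, by GAAA again, the core of an interferon-stimulated response element, were searched on both strands in RefSeq promoter windows that run from 250 bases before to 50 bases after the start of a gene (assembly GRCm38.p6). Such a window was held for 33 of the 42 genes. The letters stood in the windows of 17 of these 33 genes (51.5%), against 1079 of 27025 genes with a window (3.99%). The letters TTC and GAA, 3 bases apart, of a gamma-activated site, the element of promoters that respond to interferon-gamma, stood in 6 of the 33 (18.2%), against 9.55% of all genes with a window. A match is a run of letters and not a measured binding site, and matches of the first motif may overlap each other. The 200 bases before the start of 6 genes are shown 5′ to 3′ on the gene's strand, with the matches of this motif on either strand in capitals. They were chosen to show a window with overlapping matches (Isg15, chr4:156200819-156201018, minus strand), the paralogues with the largest CGRP responses among genes with a match (Ifit3, chr19:34583329-34583528, plus strand, and Ifit3b, chr19:34607757-34607956, plus strand), a neighbour of theirs (Ifit1, chr19:34640689-34640888, plus strand), the gene with the largest difference in CGRP response between the subsets (Ddx60, chr8:61927887-61928086, plus strand) and a window with no match (Irf7, chr7:141266425-141266624, minus strand).
Isg15: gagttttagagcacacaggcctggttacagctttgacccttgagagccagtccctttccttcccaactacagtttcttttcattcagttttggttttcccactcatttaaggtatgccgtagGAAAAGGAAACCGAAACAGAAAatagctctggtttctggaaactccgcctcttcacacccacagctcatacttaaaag
Ifit1: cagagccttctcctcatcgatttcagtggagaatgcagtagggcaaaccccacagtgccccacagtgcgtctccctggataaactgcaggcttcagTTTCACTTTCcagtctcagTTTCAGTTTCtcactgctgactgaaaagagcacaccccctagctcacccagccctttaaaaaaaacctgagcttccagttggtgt
Ifit3: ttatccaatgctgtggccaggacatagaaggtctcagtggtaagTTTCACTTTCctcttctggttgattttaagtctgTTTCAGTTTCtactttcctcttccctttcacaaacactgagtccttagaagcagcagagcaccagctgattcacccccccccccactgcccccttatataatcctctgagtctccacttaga
Ifit3b: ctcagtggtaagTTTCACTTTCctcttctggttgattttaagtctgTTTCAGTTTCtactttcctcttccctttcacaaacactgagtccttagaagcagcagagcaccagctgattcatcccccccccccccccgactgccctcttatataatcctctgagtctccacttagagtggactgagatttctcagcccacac
Ddx60: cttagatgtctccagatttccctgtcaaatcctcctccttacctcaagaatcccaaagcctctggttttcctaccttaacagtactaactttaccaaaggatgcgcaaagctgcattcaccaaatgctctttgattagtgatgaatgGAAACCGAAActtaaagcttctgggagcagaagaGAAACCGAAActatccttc
Irf7: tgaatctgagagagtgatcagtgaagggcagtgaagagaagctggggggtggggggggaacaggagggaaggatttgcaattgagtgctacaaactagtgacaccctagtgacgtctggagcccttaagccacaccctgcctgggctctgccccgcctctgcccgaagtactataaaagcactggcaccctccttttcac
The Isg15 window holds 3 overlapping matches that begin 78, 72 and 66 bases before the start. The 2 matches of Ifit3 begin 156 and 122 bases before its start, and those of Ifit3b 188 and 154 bases before its own. Over the 168 bases that could be laid side by side, the Ifit3 and Ifit3b runs were identical at 138 (82.1%). The 2 matches of Ddx60 have the same letters and begin 53 and 19 bases before the start. No match stood in the windows of Cmpk2 and Ifit2, which had the largest CGRP responses, and this says only that these letters are not in those windows.

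Several of the genes are neighbours. In the mouse genome GRCm38, which is the mm10 build of the deposited counts, 19 of the 42 lie within 200 kb of another of them. Ifit2, Ifit3, Ifit3b and Ifit1 follow each other on chromosome 19, from chr19:34550694-34576419 to chr19:34640871-34650009. Oas2, Oas3, Oas1g and Oas1a lie on chromosome 5, and Cmpk2 (chr12:26469204-26479837) and Rsad2 (chr12:26442746-26456452) lie 12.8 kb apart on opposite strands of chromosome 12. Some near-identical copies could share reads: 51.2% of the 50-base words in the exons of Ifit3 also occur in another gene, chiefly Ifit3b, as do 57.6% of those of Oas1a, chiefly in Oas1g, and 47.0% of those of Phf11b, chiefly in Phf11a. The split of reads within these pairs is therefore uncertain. Exons of Adar overlap those of Chrnb2 over 16.8% of their length, and those of Ifi35 overlap Gm11626 over 16.8%. Rtp4 overlaps Gm45338 over 13.9% and Herc6 overlaps Gm45193 over 13.7%. Parp9 and Dtx3l overlap each other, over 9.4% of the exons of Parp9 and 8.0% of those of Dtx3l. The strand setting of the counting is not given in the sources used here.

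Together the 42 genes were more abundant in every CGRP library than in every control library of the same subset. Their summed level was 4395, 4719.5 and 6893 CPM in the IAIE control libraries and 22461, 25112 and 13252 CPM in the IAIE CGRP libraries. It was 1787, 2756 and 2809.5 CPM in the CD11c control libraries, in rising order, and 6785, 11066 and 14147 CPM in the CD11c CGRP libraries, in rising order. The groups did not overlap within either subset, and the lowest CD11c CGRP library fell below the highest IAIE control library. The 42 genes made up 0.178% to 0.724% of all counts in control libraries and 0.675% to 2.29% in CGRP libraries. Per kilobase of exon, the most abundant of them were Oasl1, Rsad2, Ifit1 and Isg15 in every group. In IAIE control libraries their mean levels were 378 CPM per kilobase for Oasl1, 209 for Rsad2, 159.8 for Ifit1 and 154 for Isg15. In IAIE CGRP libraries Rsad2 came first at 1165 CPM per kilobase, before Oasl1 at 783, Ifit1 at 664 and Isg15 at 518. Ifi44 was the least abundant in every group, at 0.0636 to 0.807 CPM per kilobase.

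**Figure D1:**
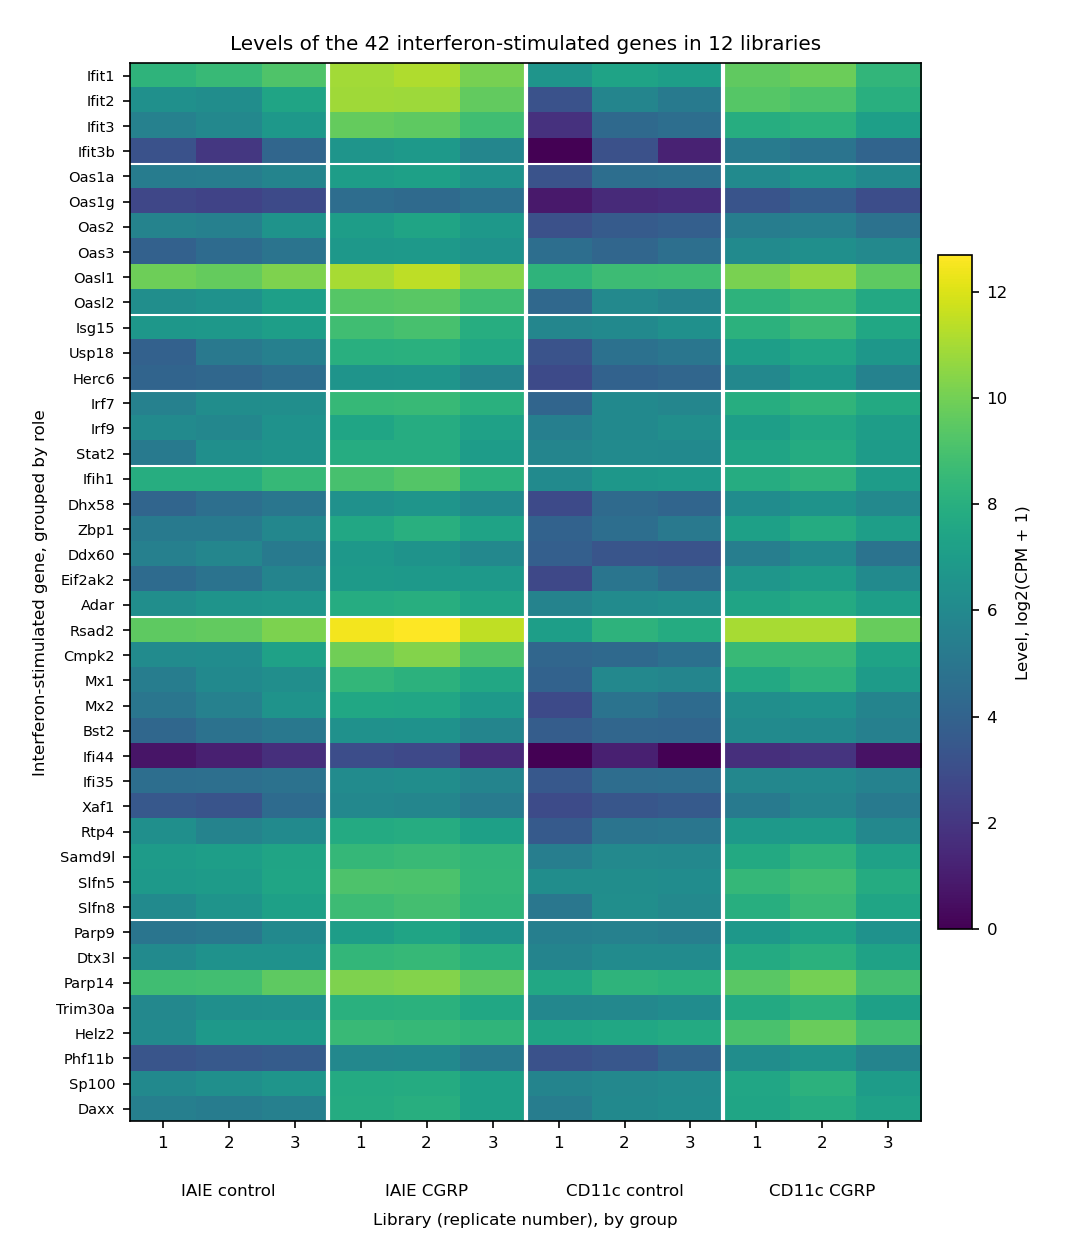
Level of each of the 42 genes (rows, grouped by role) in each of the 12 libraries (columns, by group and replicate number), as log2(CPM + 1) on a colour scale from dark (low) to yellow (high). The summed level of the 42 genes is 4395 to 6893 CPM in IAIE control, 13252 to 25112 CPM in IAIE CGRP, 1787 to 2809.5 CPM in CD11c control and 6785 to 14147 CPM in CD11c CGRP libraries.

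The first comparison asks how the genes responded to CGRP in each subset. In IAIE cells 40 of the 42 genes rose, none fell, and 40 had every CGRP library above every control library. Among all 11927 genes tested in IAIE cells, 5.32% were called higher, 3.89% were called lower and 12.9% had non-overlapping groups in that direction. The log2 differences of the 42 genes ranged from 0.74 to 3.81 with a median of 1.85, against a median of -0.02 over all tested genes. In CD11c cells 41 of the 42 rose, none fell, and 41 had non-overlapping groups, where 6.29% of all tested genes were called higher, 4.59% lower, and 15.4% did not overlap in that direction. The CD11c differences ranged from 1.22 to 3.90 with a median of 2.07, against 0.00 over all tested genes. All 42 differences were above 0 in both subsets, and 40 genes passed the threshold in both. Over all tested genes the share called higher in both cannot exceed the 5.32% of IAIE cells. Genes were called at a Benjamini-Hochberg adjusted p under 0.05 in edgeR's quasi-likelihood test, and differences are given as log2 ± SE with 3 libraries a group.

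Some markers of fibroblasts, B cells and conventional dendritic cells were also called with CGRP. Among all tested genes 9.21% were called in either direction in IAIE and 10.9% in CD11c cells. None of the 5 monocyte markers was called, with 5 below 0 in IAIE cells and 4 below 0 and 1 above 0 in CD11c cells. Summed, the monocyte markers were at 104.5 to 135.3 against 73.1 to 101.1 CPM in IAIE and 128.5 to 165.3 against 93.1 to 109.9 CPM in CD11c libraries. All 6 tested fibroblast markers of 8 listed were higher in the CD11c CGRP libraries, 2 of them past the threshold. The summed levels of the 8 were 24.5 to 35.6 CPM in CD11c control and 74.9 to 388 CPM in CD11c CGRP libraries. In IAIE cells 5 of the 6 were lower with CGRP, 3 of them past the threshold, and 1 was higher. There the summed levels of the 8 were 169 to 1383 CPM in control and 52.2 to 1571 CPM in CGRP libraries. Prg4, a gene of the lining fibroblasts, made up 1433 CPM of the highest value, that of IAIE CGRP replicate 1. All 6 B cell markers were lower with CGRP in both subsets, 1 past the threshold in IAIE and 2 in CD11c cells, with summed levels of 166 to 277 against 76.0 to 122 CPM in IAIE and 35.5 to 54.7 against 6.76 to 16.1 CPM in CD11c libraries. Of the 7 plasmacytoid dendritic cell markers analysed, the 4 that were tested did not pass in either subset. The summed levels of the 7 were 24.2 to 29.8 against 21.4 to 25.5 CPM in IAIE and 17.9 to 23.1 against 14.2 to 20.3 CPM in CD11c libraries. Of the 6 tested conventional dendritic cell markers of 8 listed, 1 (Flt3) was called lower in IAIE cells, and 3 (Flt3, Dpp4 and Cd209a) were called lower and 1 (Ccr7) higher in CD11c cells. The summed levels of all 8 were 109 to 173 against 91.3 to 117 CPM in IAIE and 634 to 696 against 671 to 775 CPM in CD11c libraries. The part of these cells in the response of the 42 genes was not tested.

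**Figure D2:**
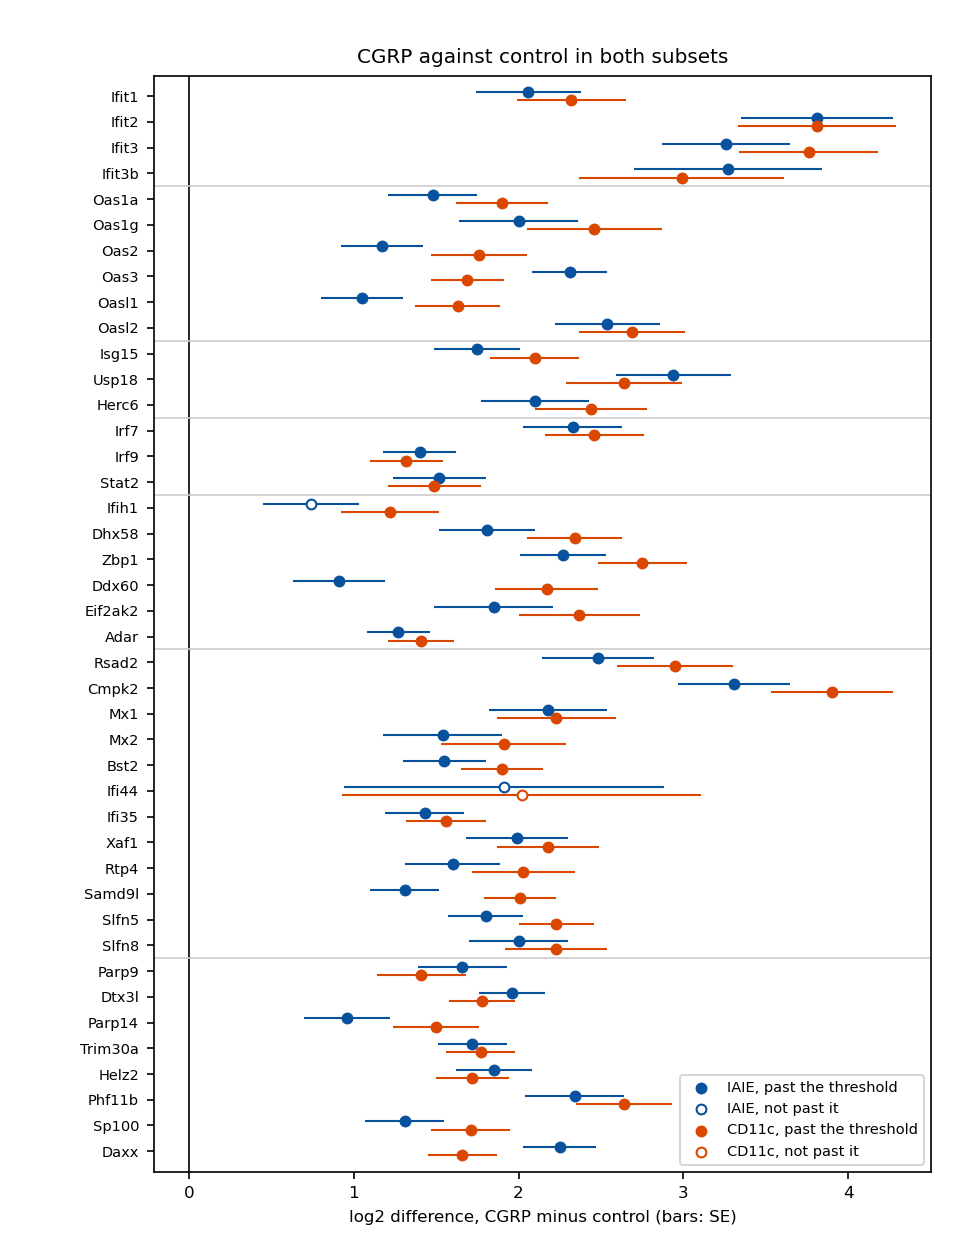
Log2 difference of each of the 42 genes between CGRP and control libraries (x axis, bars are SE, 3 libraries a group) in IAIE cells (blue) and CD11c cells (orange), with filled points past the adjusted threshold and open points not past it. Every point lies above 0, from 0.74 to 3.81 in IAIE and from 1.22 to 3.90 in CD11c cells, and the open points are Ifih1 in IAIE cells and Ifi44 in both.

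The IFIT genes encode proteins that bind foreign RNA and limit its translation, and all 4 of them among the 42 rose in both subsets. They had the largest median response of the roles, 3.26 in IAIE and 3.38 in CD11c cells. Ifit2 was at 82.5, 73.4 and 167 CPM in the control libraries and 1878, 1799 and 794 CPM in the CGRP libraries of IAIE cells. It was at 8.16, 54.5 and 36.9 CPM in the control libraries and 649.9, 555 and 256 CPM in the CGRP libraries of CD11c cells. The groups did not overlap in either subset, and replicate 3 was the lowest of the CGRP libraries in both. The Ifit2 difference was 3.81 ± 0.46 (adjusted p = 2.53e-05) in IAIE cells, a 14.0-fold increase, and 3.81 ± 0.48 (adjusted p = 2.11e-05) in CD11c cells, a 14.1-fold increase. Ifit3 was at 46.2, 59.9 and 108 CPM in the control libraries and 826, 752 and 439.9 CPM in the CGRP libraries of IAIE cells. In CD11c cells Ifit3 was at 2.45, 19.4 and 23.0 CPM in the control libraries and 237, 277 and 141 CPM in the CGRP libraries. No control library of either subset reached a CGRP library of the same subset, and the CD11c control replicate 1 stood far below the other two. Ifit3 differed by 3.26 ± 0.39 (adjusted p = 2.23e-05) in IAIE and by 3.76 ± 0.42 (adjusted p = 7.51e-06) in CD11c cells. Its close copy Ifit3b was at 8.07, 3.15 and 17.5 CPM in the control libraries and 96.1, 112 and 55.4 CPM in the CGRP libraries of IAIE cells. In CD11c cells Ifit3b was at 0, 7.95 and 1.29 CPM in the control libraries and 38.2, 28.0 and 15.8 CPM in the CGRP libraries. The Ifit3b counts were low in the controls but did not overlap those with CGRP. Ifit3b differed by 3.27 ± 0.57 (adjusted p = 0.000848) in IAIE and by 2.99 ± 0.62 (adjusted p = 0.003) in CD11c cells. Ifit1 rose by 2.06 ± 0.32 and 2.32 ± 0.33, the smallest change of the 4. Other IFIT genes, outside the 42, were also measured, with Ifit1bl1 at 2.35 ± 0.56 (adjusted p = 0.0105) and 3.38 ± 0.54 (adjusted p = 0.000251) and Ifit1bl2 at 1.86 ± 0.64 (adjusted p = 0.0778) and -0.02 ± 0.65 (adjusted p = 0.993).

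The OAS family includes enzymes that sense double-stranded RNA and make the oligoadenylates that activate RNase L. All 6 genes of the family among the 42 rose in both subsets, the median change being 1.74 in IAIE and 1.83 in CD11c cells. Oas2 was at 50.3, 45.0 and 89.5 CPM in the control libraries and 135, 167 and 109 CPM in the CGRP libraries of IAIE cells. In CD11c cells it was at 7.75, 11.5 and 13.3 CPM in the control libraries and 41.0, 45.5 and 26.9 CPM in the CGRP libraries. Every CGRP library was above every control library of its subset, but no CD11c CGRP library of Oas2 was above the highest IAIE control library. Oas2 differed by 1.17 ± 0.25 (adjusted p = 0.00479) in IAIE and by 1.76 ± 0.29 (adjusted p = 0.000339) in CD11c cells. Oas3 was at 14.6, 20.6 and 28.6 CPM in the control libraries and 109, 116 and 87.3 CPM in the CGRP libraries of IAIE cells. In CD11c cells Oas3 was at 23.3, 17.1 and 24.0 CPM in the control libraries and 65.8, 80.0 and 61.2 CPM in the CGRP libraries. The control libraries of the 2 subsets overlapped, and the CGRP libraries of IAIE cells were all above those of CD11c cells. Oas3 differed by 2.31 ± 0.23 (adjusted p = 3.32e-06) in IAIE and by 1.69 ± 0.22 (adjusted p = 3.44e-05) in CD11c cells. Oas1b, which is not among the 42, differed by 1.32 ± 0.60 (adjusted p = 0.206) in IAIE and 2.15 ± 0.65 (adjusted p = 0.0376) in CD11c cells. Among the other OAS genes of the 42, Oasl2 rose most, by 2.54 ± 0.32 and 2.69 ± 0.32, followed by Oas1g at 2.00 ± 0.36 and 2.46 ± 0.41 and Oas1a at 1.48 ± 0.27 and 1.90 ± 0.28. Oasl1, which is known to restrain the translation of Irf7, was already abundant in control libraries and rose by 1.05 ± 0.25 (adjusted p = 0.0109) in IAIE and by 1.63 ± 0.26 (adjusted p = 0.00024) in CD11c cells. The IAIE call of Oasl1 was lost without IAIE control replicate 2 or IAIE CGRP replicate 2, where the adjusted p was 0.0559 to 0.0858.

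The 3 genes of the ISG15 pathway rose in both subsets. ISG15 is a ubiquitin-like protein that is attached to other proteins, HERC6 is the ligase that attaches it in mice, and USP18 removes it and also damps signalling at the interferon receptor. Usp18 was at 14.6, 34.4 and 45.7 CPM in the control libraries and 253, 266 and 197 CPM in the CGRP libraries of IAIE cells. In CD11c cells Usp18 was at 8.57, 25.7 and 31.1 CPM in the control libraries and 138, 184 and 105 CPM in the CGRP libraries. Controls and CGRP libraries were well apart in both subsets, with replicate 1 the lowest of the controls in each. Usp18 differed by 2.94 ± 0.35 (adjusted p = 1.87e-05) in IAIE and by 2.64 ± 0.35 (adjusted p = 3.52e-05) in CD11c cells. Isg15 was at 106, 107 and 137 CPM in the control libraries and 437, 501 and 236 CPM in the CGRP libraries of IAIE cells. In CD11c cells Isg15 was at 56.3, 62.9 and 81.7 CPM in the control libraries and 288, 395 and 185 CPM in the CGRP libraries. The lowest Isg15 library with CGRP was replicate 3 in both subsets and still stood above the highest control. Isg15 differed by 1.75 ± 0.26 (adjusted p = 0.000221) in IAIE and by 2.10 ± 0.27 (adjusted p = 2.46e-05) in CD11c cells, and Herc6 by 2.10 ± 0.33 and 2.44 ± 0.34.

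The 3 transcription factors rose in both subsets. STAT2 and IRF9 are parts of ISGF3, and IRF7 is the factor that drives the interferon-alpha genes once a first wave of interferon has raised it. Irf7 was at 47.2, 74.8 and 77.0 CPM in the control libraries and 366, 371 and 264 CPM in the CGRP libraries of IAIE cells. In CD11c cells Irf7 was at 16.7, 62.9 and 55.4 CPM in the control libraries and 241, 316 and 209.6 CPM in the CGRP libraries. The groups were apart in both subsets, and the CD11c control replicate 1 was the lowest of all libraries. Irf7 differed by 2.33 ± 0.30 (adjusted p = 4.77e-05) in IAIE and by 2.46 ± 0.30 (adjusted p = 1.92e-05) in CD11c cells. Irf9 was at 66.7, 58.5 and 88.2 CPM in the control libraries and 176, 229 and 154 CPM in the CGRP libraries of IAIE cells. In CD11c cells Irf9 was at 43.2, 64.3 and 76.4 CPM in the control libraries and 137, 195 and 132 CPM in the CGRP libraries. Irf9 thus had a smaller but still non-overlapping change, 1.40 ± 0.22 (adjusted p = 0.000322) in IAIE and 1.32 ± 0.22 (adjusted p = 0.000336) in CD11c cells. Stat2 was at 36.9, 79.1 and 92.2 CPM in the control libraries and 229.5, 233 and 130.1 CPM in the CGRP libraries of IAIE cells. In CD11c cells Stat2 was at 54.3, 65.7 and 63.7 CPM in the control libraries and 168, 227 and 124 CPM in the CGRP libraries. Its groups did not overlap, and it differed by 1.52 ± 0.28 (adjusted p = 0.00131) in IAIE and by 1.49 ± 0.28 (adjusted p = 0.00116) in CD11c cells.

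Of the 6 sensors and binding proteins of nucleic acids, 5 rose in IAIE and 6 in CD11c cells, with medians of 1.54 and 2.26. IFIH1, also called MDA5, senses long double-stranded RNA. Ifih1 was at 242, 235 and 362 CPM in the control libraries and 508, 618 and 270.2 CPM in the CGRP libraries of IAIE cells. In CD11c cells Ifih1 was at 65.3, 104 and 110.5 CPM in the control libraries and 233, 298 and 127 CPM in the CGRP libraries. The IAIE groups overlapped, because IAIE CGRP replicate 3 was below IAIE control replicate 3, and the CD11c groups did not. Ifih1 differed by 0.74 ± 0.29 (adjusted p = 0.131) in IAIE cells, with a 95% interval of 0.13 to 1.34, and by 1.22 ± 0.30 (adjusted p = 0.0102) in CD11c cells. The IAIE value passed the threshold without IAIE CGRP replicate 3, and the CD11c value did not pass without CD11c control replicate 1 or CD11c CGRP replicate 2, where the adjusted p was 0.0593 to 0.0643. DDX60 is a helicase that promotes RNA sensing. Ddx60 was at 44.7, 55.6 and 36.7 CPM in the control libraries and 109, 90.4 and 60.3 CPM in the CGRP libraries of IAIE cells. In CD11c cells Ddx60 was at 13.1, 9.12 and 8.58 CPM in the control libraries and 42.6, 66.6 and 27.2 CPM in the CGRP libraries. Both pairs of groups were apart, and the lowest IAIE CGRP library was only just above the highest IAIE control library. Ddx60 differed by 0.91 ± 0.28 (adjusted p = 0.0444) in IAIE and by 2.17 ± 0.31 (adjusted p = 9.61e-05) in CD11c cells. Its IAIE call was lost without IAIE control replicate 1 or 3, without IAIE CGRP replicate 1 or 2, with upper-quartile scaling and with libraries thinned to the lowest library total, with adjusted p from 0.0529 to 0.18. ADAR edits adenosines in double-stranded RNA and so keeps the cell's own RNA from being sensed. Adar was at 75.1, 92.9 and 99.4 CPM in the control libraries and 233, 244 and 168 CPM in the CGRP libraries of IAIE cells. In CD11c cells Adar was at 49.4, 69.2 and 75.1 CPM in the control libraries and 168, 216 and 138 CPM in the CGRP libraries. The groups were apart in both, and Adar differed by 1.27 ± 0.19 (adjusted p = 0.000283) in IAIE and by 1.41 ± 0.20 (adjusted p = 5.82e-05) in CD11c cells. Zbp1, a sensor of Z-form nucleic acids, rose by 2.27 ± 0.26 and 2.75 ± 0.27, the RNA helicase Dhx58 by 1.81 ± 0.29 and 2.34 ± 0.29, and Eif2ak2, the kinase PKR that stops translation, by 1.85 ± 0.36 and 2.37 ± 0.37.

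Of the 12 other antiviral effectors, 11 rose in each subset, the median change being 1.85 in IAIE and 2.11 in CD11c cells. CMPK2 is a mitochondrial nucleotide kinase and RSAD2, or viperin, makes an antiviral nucleotide from CTP. Cmpk2 was at 67.9, 71.4 and 152 CPM in the control libraries and 988, 1275 and 589 CPM in the CGRP libraries of IAIE cells. In CD11c cells Cmpk2 was at 17.1, 19.2 and 24.5 CPM in the control libraries and 374, 385 and 161 CPM in the CGRP libraries. The lowest CGRP library of either subset was several times above the highest control library. Cmpk2 differed by 3.31 ± 0.34 (adjusted p = 4.76e-06) in IAIE and by 3.90 ± 0.37 (adjusted p = 2.13e-06) in CD11c cells, the largest difference of any of the 42 genes in CD11c cells. Rsad2 was at 748, 795 and 1172 CPM in the control libraries and 5729.6, 6601 and 2817 CPM in the CGRP libraries of IAIE cells. In CD11c cells Rsad2 was at 137, 295 and 227 CPM in the control libraries and 2068, 2176 and 854 CPM in the CGRP libraries. Of the 3 CD11c CGRP libraries of Rsad2, 1 (replicate 3) lay within the range of the IAIE control libraries. Rsad2 differed by 2.48 ± 0.34 (adjusted p = 8.5e-05) in IAIE and by 2.95 ± 0.35 (adjusted p = 1.16e-05) in CD11c cells. SAMD9L limits viral replication and cell growth. Samd9l was at 122, 136 and 172 CPM in the control libraries and 354, 389.7 and 322 CPM in the CGRP libraries of IAIE cells. In CD11c cells Samd9l was at 41.6, 61.0 and 59.4 CPM in the control libraries and 210.0, 301 and 150.0 CPM in the CGRP libraries. Its groups were apart in both subsets, and it differed by 1.31 ± 0.21 (adjusted p = 0.00038) in IAIE and by 2.01 ± 0.22 (adjusted p = 5.05e-06) in CD11c cells.

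The exception among the effectors was Ifi44, which was under or near the floor in the control libraries. Ifi44 was at 0.62, 1.15 and 2.24 CPM in the control libraries and 6.88, 6.07 and 1.89 CPM in the CGRP libraries of IAIE cells. In CD11c cells Ifi44 was at 0, 1.17 and 0 CPM in the control libraries and 2.3, 2.72 and 0.534 CPM in the CGRP libraries. Its groups overlapped in both subsets, and the differences of 1.91 ± 0.97 (adjusted p = 0.265) in IAIE and 2.02 ± 1.09 (adjusted p = 0.297) in CD11c cells did not pass. The other 8 effectors rose by 1.43 to 2.18 in IAIE and by 1.56 to 2.23 in CD11c cells. They include the GTPases Mx1 (2.18 ± 0.36 and 2.23 ± 0.36) and Mx2 (1.54 ± 0.36 and 1.91 ± 0.38), and Bst2, the tether that holds budding virus at the cell surface (1.55 ± 0.25 and 1.90 ± 0.25). The Mx2 call in IAIE cells was lost without IAIE control replicate 1 (adjusted p = 0.0528). Slfn5 and Slfn8, of the Schlafen family, rose by 1.80 ± 0.23 and 2.00 ± 0.30 in IAIE and both by 2.23 in CD11c cells. Xaf1 rose by 1.99 ± 0.31 and 2.18 ± 0.31, Rtp4 by 1.60 ± 0.29 and 2.03 ± 0.31, and Ifi35 by 1.43 ± 0.24 and 1.56 ± 0.24.

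All 8 genes of the group of PARP enzymes, ubiquitin ligases and nuclear proteins rose in both subsets, the median change being 1.78 in IAIE and 1.71 in CD11c cells. PARP14 is an ADP-ribosyltransferase. Parp14 was at 447, 466 and 747 CPM in the control libraries and 1189, 1277 and 766 CPM in the CGRP libraries of IAIE cells. In CD11c cells Parp14 was at 193, 305 and 277 CPM in the control libraries and 683, 1051 and 472 CPM in the CGRP libraries. The IAIE groups were only just apart, since IAIE control replicate 3 and IAIE CGRP replicate 3 lay close together. Parp14 differed by 0.96 ± 0.26 (adjusted p = 0.0211) in IAIE and by 1.50 ± 0.26 (adjusted p = 0.000626) in CD11c cells. Its IAIE call was lost with DESeq2 and without IAIE control replicate 1 or 2 or IAIE CGRP replicate 1 or 2, with adjusted p from 0.0505 to 0.103. HELZ2 is a helicase that acts as a coactivator of nuclear receptors. Helz2 was at 67.0, 112 and 114 CPM in the control libraries and 383, 359 and 311 CPM in the CGRP libraries of IAIE cells. In CD11c cells Helz2 was at 169, 187 and 215 CPM in the control libraries and 532, 895 and 454 CPM in the CGRP libraries. Helz2 is the gene of the 42 that was clearly higher in CD11c than in IAIE cells, and it rose with CGRP in both, by 1.85 ± 0.23 (adjusted p = 2.53e-05) in IAIE and 1.72 ± 0.22 (adjusted p = 2.79e-05) in CD11c cells. DAXX and SP100 are proteins of nuclear bodies that silence foreign DNA. Daxx was at 43.4, 39.3 and 45.7 CPM in the control libraries and 220.5, 243 and 148 CPM in the CGRP libraries of IAIE cells. In CD11c cells Daxx was at 40.0, 62.9 and 70.6 CPM in the control libraries and 173, 230.4 and 152 CPM in the CGRP libraries. The groups were apart in both subsets, and Daxx differed by 2.25 ± 0.22 (adjusted p = 3.45e-06) in IAIE and by 1.66 ± 0.21 (adjusted p = 2.85e-05) in CD11c cells.

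Sp100 was at 63.9, 78.6 and 96.2 CPM in the control libraries and 215, 227 and 149 CPM in the CGRP libraries of IAIE cells. In CD11c cells Sp100 was at 51.4, 60.1 and 69.1 CPM in the control libraries and 183, 283 and 129.5 CPM in the CGRP libraries. The Sp100 groups were apart in both subsets, and it differed by 1.31 ± 0.24 (adjusted p = 0.0011) in IAIE and by 1.71 ± 0.24 (adjusted p = 6.39e-05) in CD11c cells. Phf11b was at 9.31, 10.6 and 12.1 CPM in the control libraries and 59.8, 65.1 and 36.8 CPM in the CGRP libraries of IAIE cells. In CD11c cells Phf11b was at 8.16, 9.82 and 16.1 CPM in the control libraries and 73.6, 92.8 and 52.5 CPM in the CGRP libraries. It had the largest response of its group in both subsets, 2.34 ± 0.30 (adjusted p = 3.48e-05) in IAIE and 2.64 ± 0.29 (adjusted p = 5.39e-06) in CD11c cells, and it shares sequence with Phf11a. Parp9 and Dtx3l encode proteins that form a complex. The 2 genes lie head to head on chromosome 16 with exons that overlap, so that they could share reads. Parp9 rose by 1.66 ± 0.27 and 1.41 ± 0.27, Dtx3l by 1.96 ± 0.20 and 1.78 ± 0.20, and Trim30a, a ubiquitin ligase that damps Toll-like receptor signalling, by 1.72 ± 0.21 and 1.77 ± 0.21.

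The next comparison asks whether the response to CGRP differed between the subsets, through the interaction term of the same fit, coded as the CD11c effect minus the IAIE effect. None of the 42 genes passed the adjusted threshold in edgeR, DESeq2 or limma-voom, and over all tested genes 0.151% passed it in edgeR. An unadjusted p under 0.05 in edgeR was found for 2 of the 42 genes and for 1049 of all 11927 tested genes. The interaction values ranged from -0.62 to 1.26 with a median of 0.32, against 0.01 over all tested genes, and 33 of the 42 were above 0. The largest was that of Ddx60, at 1.26 ± 0.42 (adjusted p = 0.329) with a 95% interval of 0.39 to 2.14. Ddx60 passed, with an adjusted p of 0.0314, when every gene with at least 1 count was tested. Samd9l followed at 0.70 ± 0.29 (adjusted p = 0.486), with an interval of 0.09 to 1.32. Oas3 had the lowest value, -0.62 ± 0.31 (adjusted p = 0.59), with an interval of -1.27 to 0.03. All 6 nucleic acid sensors and all 12 antiviral effectors had an interaction above 0, with medians of 0.50 and 0.36, and the group of PARP enzymes, ligases and nuclear proteins was split evenly, 4 above and 4 below. The interval of Ifit2, which had nearly the same difference in both subsets, ran from -1.16 to 1.18, so that this size of interval leaves room for a difference in either direction.

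The subsets were then compared with each other under the same treatment. Most of the 42 genes were lower in CD11c than in IAIE cells. In control libraries 37 of 42 differences were below 0, 18 genes were called lower and 1 was called higher, where 10.9% of all tested genes were called lower and 10.2% higher. The control differences ranged from -2.45 to 0.97 with a median of -0.78, against -0.02 over all tested genes. In CGRP libraries 39 differences were below 0, 15 genes were called lower and 1 higher, where 8.51% of all tested genes were called lower and 8.36% higher. The CGRP differences ranged from -1.86 to 0.84 with a median of -0.54, against 0.00 over all tested genes. Under both treatments 14 genes were called lower, and over all tested genes that share cannot exceed 8.51%. The count of 16 called in CGRP libraries fell to 8 without IAIE CGRP replicate 1, to 8 without IAIE CGRP replicate 2 and to 6 without CD11c CGRP replicate 3. The subsets also differed in markers of other cells: all 6 B cell markers were lower in CD11c than in IAIE control libraries, 5 of them past the threshold, as were 8 of 9 macrophage markers and 5 of 6 tested fibroblast markers, with the summed levels given above. The part of these markers' cells in the difference between the subsets was not tested.

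**Figure D3:**
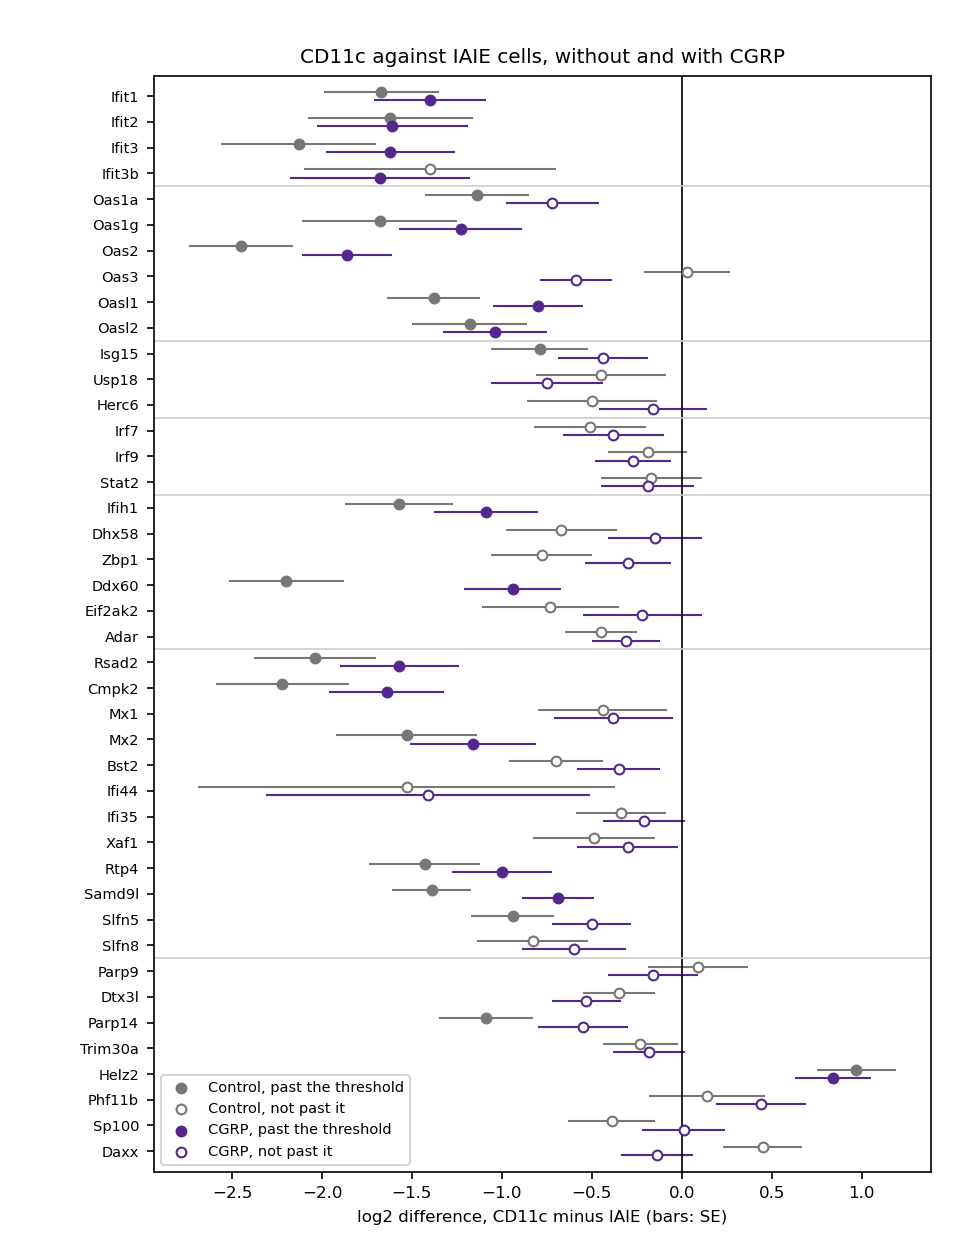
Log2 difference of each of the 42 genes between CD11c and IAIE cells (x axis, bars are SE, 3 libraries a group) in control libraries (grey) and CGRP libraries (purple), with filled points past the adjusted threshold and open points not past it. Most points lie below 0, down to -2.45 for Oas2 in control libraries, and Helz2 has the filled points above 0, at 0.97 and 0.84.

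The lowest differences in control libraries were those of Oas2, Cmpk2, Ddx60, Ifit3 and Rsad2, in that order. The OAS genes were not alike in this, with Oas3 at 0.03 ± 0.24 (adjusted p = 0.957). Oas2 was lower by -2.45 ± 0.29 (adjusted p = 5.66e-06) in control and -1.86 ± 0.25 (adjusted p = 2.85e-05) in CGRP libraries. Its 3 CD11c libraries were all below its 3 IAIE libraries under either treatment. Cmpk2 differed by -2.22 ± 0.37 (adjusted p = 0.0002) and -1.64 ± 0.32 (adjusted p = 0.000988), and Rsad2 by -2.04 ± 0.34 (adjusted p = 0.0002) and -1.57 ± 0.33 (adjusted p = 0.00184). In control libraries Ddx60 (-2.20 ± 0.32, adjusted p = 5.54e-05) and Samd9l (-1.39 ± 0.22, adjusted p = 0.000106) were among the clearest. With CGRP the distance of Ddx60 was -0.94 ± 0.27 (adjusted p = 0.022) and that of Samd9l -0.69 ± 0.20 (adjusted p = 0.022). The 4 IFIT genes of the 42 differed by -2.13 to -1.40 in control libraries, where 3 were called, and by -1.68 to -1.40 in CGRP libraries, where 4 were called.

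Helz2 alone was called higher in CD11c cells, by 0.97 ± 0.22 (adjusted p = 0.00397) in control and 0.84 ± 0.21 (adjusted p = 0.00937) in CGRP libraries. The latter call was lost without CD11c CGRP replicate 2 (adjusted p = 0.0917). Daxx stood at 0.45 ± 0.22 (adjusted p = 0.17) in control libraries and passed there without CD11c control replicate 1. Phf11b stood at 0.14 ± 0.32 (adjusted p = 0.819) in control and 0.44 ± 0.25 (adjusted p = 0.287) in CGRP libraries, and Sp100 at 0.01 ± 0.23 (adjusted p = 0.988) in CGRP libraries, so that none of the 3 passed. The transcription factors did not pass in either treatment, with differences of -0.51 to -0.17 in control and -0.38 to -0.19 in CGRP libraries. CGRP brought many CD11c levels above those of untreated IAIE cells: for 30 of the 42 genes every CD11c CGRP library was above every IAIE control library, as was the case for 20.6% of all tested genes.

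The pathway upstream of the genes was described from lists of interferon ligands, receptors, kinases and regulators. Of 21 ligand genes listed, 5 were among the counted genes, so that the others could not be examined. Of these 5, only Ifnb1, which encodes interferon-beta, was abundant enough to be tested. Ifnb1 was at 45.6, 30.1 and 54.2 CPM in the control libraries and 126, 136 and 38.3 CPM in the CGRP libraries of IAIE cells. In CD11c cells Ifnb1 was at 4.9, 7.01 and 4.08 CPM in the control libraries and 26.8, 45.5 and 6.94 CPM in the CGRP libraries. The CGRP libraries numbered 1 and 2 were above all controls of their subset, and those numbered 3 fell within the range of the controls in both subsets. Ifnb1 differed by 1.21 ± 0.46 (adjusted p = 0.121) in IAIE cells and by 2.28 ± 0.57 (adjusted p = 0.0121) in CD11c cells. Over the alternatives the adjusted p ranged from 2.93e-07 to 0.378 in IAIE and from 9.33e-16 to 0.249 in CD11c cells, the lowest of each with no filter on low counts. Without IAIE CGRP replicate 3 the Ifnb1 difference in IAIE cells was 1.61 (adjusted p = 0.0267), and the CD11c call was lost without CD11c control replicate 3 or CD11c CGRP replicate 2, with adjusted p of 0.0682 and 0.0774, and with limma-voom, where the difference was 1.74 (adjusted p = 0.249). Ifnb1 was lower in CD11c than in IAIE cells, by -3.00 ± 0.57 (adjusted p = 0.000755) in control and -1.93 ± 0.47 (adjusted p = 0.00652) in CGRP libraries. Ifna12, Ifna13 and Ifnab did not exceed 0.701 CPM in any library, and Ifnk, an interferon best known from skin, did not exceed 4.95 CPM.

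Of 10 tested genes for receptors, kinases, STAT3 and IRF1, 2 were called lower and none higher in IAIE cells, and 1 was called higher and 2 lower in CD11c cells. Jak1, the kinase bound to IFNAR2, fell in both subsets. Jak1 was at 900.2, 696 and 648 CPM in the control libraries and 457, 451 and 469 CPM in the CGRP libraries of IAIE cells. In CD11c cells Jak1 was at 726, 658 and 598 CPM in the control libraries and 357, 369 and 372 CPM in the CGRP libraries. Every CGRP library was below every control library, and Jak1 differed by -0.70 ± 0.13 (adjusted p = 0.00118) in IAIE and by -0.85 ± 0.13 (adjusted p = 0.00015) in CD11c cells. The receptor subunits did not pass: Ifnar1 differed by 0.16 ± 0.13 (adjusted p = 0.535) and 0.08 ± 0.13 (adjusted p = 0.783), and Ifnar2 by 0.19 ± 0.17 (adjusted p = 0.586) and 0.27 ± 0.17 (adjusted p = 0.386). Of the interferon-gamma receptor, Ifngr1 differed by -0.33 ± 0.16 (adjusted p = 0.228) and -0.50 ± 0.15 (adjusted p = 0.0414), and Ifngr2 by -0.21 ± 0.16 (adjusted p = 0.514) and 0.08 ± 0.16 (adjusted p = 0.841). Irf1, a factor induced by interferon-gamma, differed by -0.37 ± 0.17 (adjusted p = 0.219) in IAIE and rose by 0.68 ± 0.18 (adjusted p = 0.0161) in CD11c cells, and the difference between the 2 did not pass (interaction 1.05 ± 0.25 (adjusted p = 0.12)). Stat3 differed by -0.43 ± 0.12 (adjusted p = 0.0273) and -0.16 ± 0.12 (adjusted p = 0.483).

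**Figure D4:**
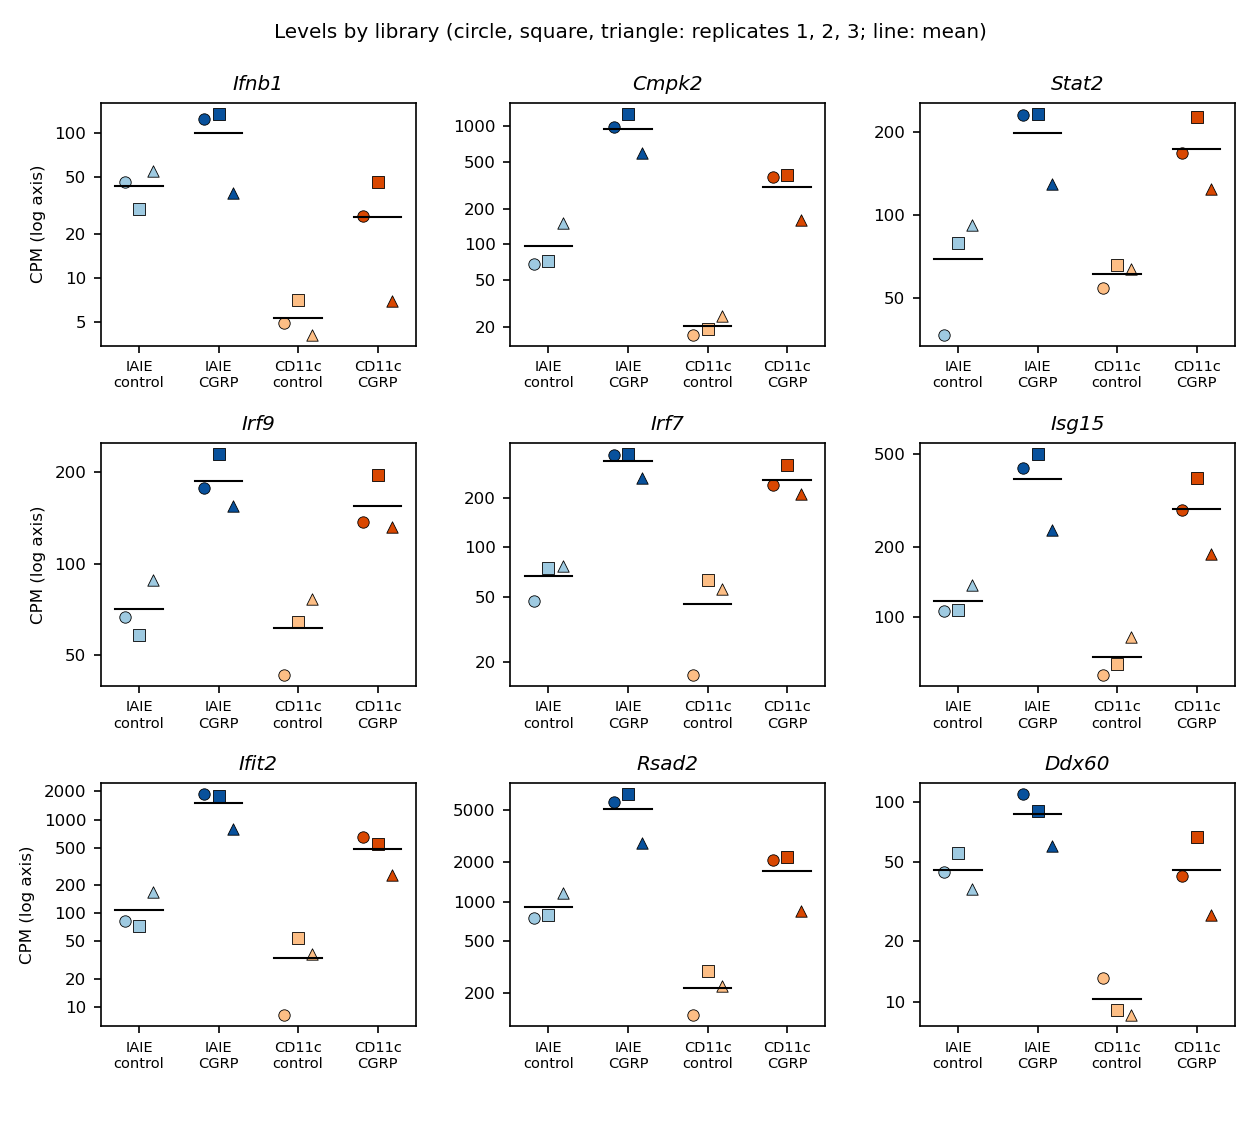
Level in each library, as CPM on a log axis, of Ifnb1, Cmpk2, the ISGF3 genes Stat2 and Irf9, and Irf7, Isg15, Ifit2, Rsad2 and Ddx60, by group, with circles, squares and triangles for replicates 1, 2 and 3 and a line at the mean. The 3 CGRP libraries of each subset are above its controls in every panel but that of Ifnb1, whose triangles (38.3 CPM in IAIE CGRP, 6.94 CPM in CD11c CGRP) lie within the range of the controls.

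Among 10 negative regulators, 2 were called higher and 1 lower in IAIE cells and 2 higher and none lower in CD11c cells. Socs1, the inhibitor of JAK kinases that interferon itself induces, rose by 1.40 ± 0.30 (adjusted p = 0.00484) in IAIE and 1.16 ± 0.29 (adjusted p = 0.0129) in CD11c cells. Irf2, a repressor at interferon-response elements, rose by 0.50 ± 0.15 (adjusted p = 0.0411) and 0.82 ± 0.15 (adjusted p = 0.00101). The phosphatase gene Ptpn6 differed by -0.81 ± 0.22 (adjusted p = 0.0252) and -0.39 ± 0.22 (adjusted p = 0.33). Among 18 genes of sensing and interferon production, 3 were called higher and 1 lower in IAIE cells, with a median of -0.12. In CD11c cells 2 were called higher and 1 lower, with a median of 0.04. The shares called were 22.2% and 16.7%, against the same 9.21% and 10.9% of all tested genes. Rigi, the RNA sensor RIG-I, rose by 2.42 ± 0.27 (adjusted p = 1.25e-05) and 2.66 ± 0.28 (adjusted p = 4.52e-06). Tlr4, the receptor for lipopolysaccharide, rose by 0.83 ± 0.18 (adjusted p = 0.00614) and 1.16 ± 0.19 (adjusted p = 0.000276). The DNA sensor gene Cgas differed by 1.01 ± 0.29 (adjusted p = 0.0312) and 0.70 ± 0.28 (adjusted p = 0.133). The factor gene Irf8 differed by -0.79 ± 0.18 (adjusted p = 0.00697) and -0.56 ± 0.19 (adjusted p = 0.073), and Tlr9, a receptor for unmethylated DNA, by -0.55 ± 0.19 (adjusted p = 0.0773) and -1.20 ± 0.20 (adjusted p = 0.000341). Under the alternatives, some CGRP calls in each subset were lost among the genes named from the lists of receptors, kinases, regulators and sensors.

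A list of 54 further interferon-stimulated genes, of which 51 were tested, moved in the same direction. In each subset 34 of the 51 were called higher and none lower, the median change being 1.36 in IAIE and 1.34 in CD11c cells and values from -1.22 to 3.32 and from -1.28 to 3.38. Isg20, an RNA exonuclease, rose by 2.57 ± 0.29 (adjusted p = 1.39e-05) in IAIE and 2.76 ± 0.29 (adjusted p = 5.05e-06) in CD11c cells. Of the cluster of genes with DNA-binding HIN domains, Ifi205 rose by 2.18 ± 0.25 (adjusted p = 1.65e-05) and 2.44 ± 0.26 (adjusted p = 5.05e-06), Ifi209 by 3.20 ± 0.38 (adjusted p = 1.8e-05) and 2.73 ± 0.37 (adjusted p = 4.5e-05), and Ifi204 by 1.25 ± 0.22 (adjusted p = 0.00113) and 2.25 ± 0.24 (adjusted p = 4.77e-06). Of the 19 GTPases best known as induced by interferon-gamma, 14 were tested, 9 rose in IAIE and 11 in CD11c cells, none fell, and the medians were 1.65 and 1.43. Iigp1 was at 9, 14.6 and 20.6 CPM in the control libraries and 74.9, 73.1 and 56.0 CPM in the CGRP libraries of IAIE cells. In CD11c cells Iigp1 was at 1.22, 0.468 and 0.858 CPM in the control libraries and 15.0, 20.0 and 9.96 CPM in the CGRP libraries. Its CD11c control libraries were near the floor, and the fitted difference there depends on the prior count. Iigp1 rose by 2.23 ± 0.30 (adjusted p = 8.58e-05) in IAIE cells. Ifi47 rose by 2.39 ± 0.37 (adjusted p = 0.000329) and 3.16 ± 0.40 (adjusted p = 2.33e-05), Igtp by 2.38 ± 0.37 (adjusted p = 0.000369) and 3.14 ± 0.41 (adjusted p = 3.47e-05), and Gbp3 by 1.53 ± 0.22 (adjusted p = 0.000164) and 0.85 ± 0.22 (adjusted p = 0.0136).

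The replicates of a group differed in the 42 genes as a set. Among the IAIE CGRP libraries, replicate 3 was the lowest for 40 of the 42 genes, and among the CD11c CGRP libraries replicate 3 was the lowest for 42. Over all tested genes the same libraries were the lowest for 35.6% and 31.0%. Taken as log2 of the level over the control mean, the median gene stood at 1.87, 1.97 and 1.40 in IAIE CGRP replicates 1, 2 and 3, and at 1.99, 2.43 and 1.46 in those of CD11c cells. Ifnb1 was also lowest in replicate 3 of both CGRP groups. Among the IAIE controls, replicate 3, the library with the fewest counts, was the highest for 40 of the 42 genes, where it was the highest for 33.2% of all tested genes. Among the CD11c controls, replicate 1 was the lowest for 38 of the 42, where it was the lowest for 38.5% of all tested genes. With both CGRP replicates numbered 3 left out, an alternative chosen after these values were seen, 41 genes were called higher in each subset, the median change being 1.99 in IAIE and 2.31 in CD11c cells.

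**Figure D5:**
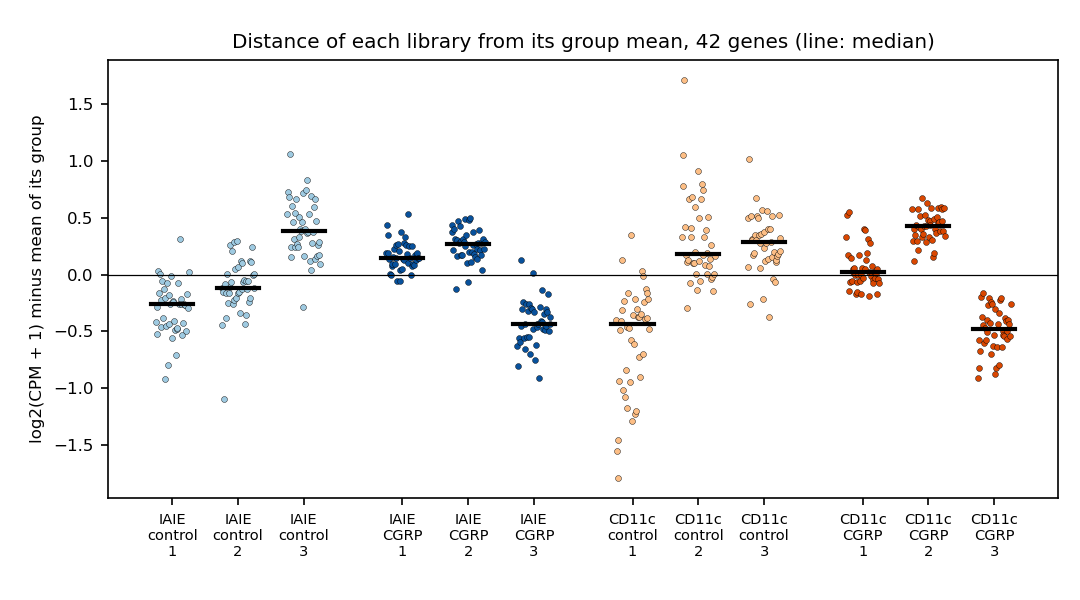
Distance of each library from the mean of its group in log2(CPM + 1), with 1 point for each of the 42 genes and a line at the median, by group and replicate. The medians of the 2 CGRP libraries numbered 3 are -0.43 in IAIE and -0.48 in CD11c cells, that of IAIE control replicate 3 is 0.38, and that of CD11c control replicate 1 is -0.43.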

How the data were processed

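The 42 genes and the other lists were chosen with earlier results of these data known. According to the methods and the submitters' processing notes, reads were trimmed with Trim Galore, HISAT2 was used for alignment to mouse mm10, and featureCounts gave a count for each gene symbol. Versions, annotation and strand setting are not given in the sources used here. The values deposited by the authors are raw counts per gene and library. Of the combined table of the series, 6 columns that no label maps to a sample were not used. Totals ranged from 2127191 to 5649698 counts, and within groups Spearman's rho between libraries was 0.934 to 0.968.

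Genes were kept with filterByExpr (minimum count 10, minimum total 15), which left 11927. All 12 libraries entered a single edgeR 4.0.16 quasi-likelihood fit (R 4.3.3, TMM scaling, a mean per group), with Benjamini-Hochberg adjustment over all tested genes and a threshold of 0.05, two-sided. The fit was tested on simulated data. SEs were taken from the F statistics, and 95% intervals used a t quantile of 2.09. Named genes are, in each CGRP comparison, the 5 with the largest and the 3 with the smallest difference among genes averaging 5 CPM or more, the 3 with the smallest interaction p, the 3 each way with the smallest p between subsets, and the 3 transcription factors. Isg15, Ifi44, Oasl1, Iigp1, Oas1b, Ifit1bl1, Ifit1bl2 and single marker genes were described in addition, after their values were seen. Pathway lists are given by counts, with the ligands, receptors and up to 3 genes each way by smallest p. A listed pathway gene is not reported here.

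Alternatives were RLE and upper-quartile scaling, 2 other filters, DESeq2 1.42.0, limma-voom (limma 3.58.1), 1 surrogate variable (sva 3.50.0), fits of the compared libraries alone, thinning to the lowest total, replicate blocks and leaving out each library. Deviations from group means were compared between libraries with the same number: for CGRP libraries of the 2 subsets the correlations were 0.233, 0.126 and 0.136 over 7618 genes that reached 10 counts in each of the 12 libraries, but 0.259, 0.071 and 0.072 over 8789 genes averaging 5 CPM or more, and no other pair of groups exceeded 0.1 for all 3 numbers. The labels tie no number to a mouse or explant. Gene positions come from GENCODE vM21 (GRCm38) and promoter sequences from RefSeq (GRCm38.p6).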

Additional observations from a re-analysis of the deposited data

Results flagged for a closer look

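Dcn, which encodes decorin and is a fibroblast marker, had CGRP differences that were unlike in the 2 subsets. It was at 20.5, 42.4 and 39.4 CPM in IAIE control, 17.7, 2.43 and 4.53 CPM in IAIE CGRP, 2.45, 1.40 and 1.93 CPM in CD11c control and 57.3, 104.5 and 6.41 CPM in CD11c CGRP libraries. The CGRP difference was -2.08 ± 0.69 in IAIE (adjusted p = 0.0697) and 4.88 ± 0.84 in CD11c cells (adjusted p = 0.000577), and the effect in CD11c minus that in IAIE cells was 6.96 ± 1.10 (adjusted p = 0.00898, edgeR). In these sorted libraries a change in the share of fibroblasts and a change in Dcn RNA per cell cannot be told apart. The part of Dcn in the values of the 42 genes was not tested.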

How the results depend on the processing

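The counts of genes past the threshold and the medians of the 42 genes kept their direction under every alternative run. The count was 37 to 41 in IAIE and 38 to 41 in CD11c cells for CGRP against control over the scalings, filters, tools, blocks and left-out libraries. Leaving out 1 library gave counts of 37 to 41 and medians of 1.69 to 2.08 in IAIE cells, 40 to 41 and 1.82 to 2.29 in CD11c cells, and 0 to 0 and 0.04 to 0.50 for the interaction. For CD11c against IAIE it gave 15 to 21 and -0.94 to -0.50 in control libraries and 6 to 20 and -0.75 to -0.32 in CGRP libraries. With no filter beyond 1 count, 1 gene, Ddx60, passed for the interaction. With 1 surrogate variable, 9 genes passed between the subsets in CGRP libraries. The cause was not tested.

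Of single genes between the subsets, Sp100 in CGRP libraries turned to -0.02 with the replicate block, -0.04 with the explant replicate block and -0.16 with limma-voom, and to -0.01 without IAIE control replicate 2 or 3, -0.16 without IAIE CGRP replicate 3 and -0.33 without CD11c CGRP replicate 2, in a range of -0.33 to 0.25 over the left-out libraries. Phf11b in control libraries turned to -0.02 with thinning and -0.17 without CD11c control replicate 3, in a range of -0.17 to 0.32. Neither was called under any of these. With the replicate block, which pairs libraries by their number, 40 and 41 genes passed for CGRP, and no call of a named gene changed there. Between the subsets 21 passed in control and 18 in CGRP libraries, and with the block on explants 27 and 24. Neither block changed a call of Helz2, Daxx, Phf11b, Oas2, Ddx60 or Samd9l in control libraries. The same held for Helz2, Phf11b, Sp100, Oas2, Cmpk2 and Rsad2 in CGRP libraries. Which other genes changed call between the subsets under the blocks was not examined. Scaling moved the median of all genes by at most 0.05. Ifi44 was under or near the floor of 3 counts in the control libraries, and the part of depth in its missed calls was not tested.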
